A study of Arabidopsis thaliana with 4 samples.

Results

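Root transcriptomes of 4 Arabidopsis thaliana reporter lines were set side by side, the pWER:GFP and pSCR:GFP lines on one side and the pCORTEX:GFP line and the enhancer trap PET111 on the other. A gene was counted as a member where its level in both libraries of a side lay above its level in both libraries of the other side, and 12326 of 19462 genes measured did so (63.3%). The pWER:GFP and pSCR:GFP lines carry GFP under the promoters of WER, a MYB factor of the epidermis, and SCR, a GRAS factor of the ground tissue. The pCORTEX:GFP line carries GFP under the promoter named CORTEX, taken here as that of the aspartyl protease gene AT1G09750, and PET111 is an enhancer trap whose reporter row was YFP, with no promoter gene in the labels. All 4 lines were diploid transgenic lines grown at 22 °C under continuous light, and protoplasts were released from root tips 4 to 5 days after germination. No drug, temperature shift or other treatment is in the labels. Each line had 1 library and its own batch number, 1 for pWER:GFP, 2 for pCORTEX:GFP, 3 for PET111 and 4 for pSCR:GFP, so the line, its plant background, the batch and the pairing of lines used here cannot be told apart. Because the pairing was proposed with results of these libraries known, all values below are descriptions and no test was made.

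Several of the gene lists described here belong to stress programmes of the plant. Water loss and cold lead Arabidopsis cells to make abscisic acid, which its receptors sense by binding and blocking clade A protein phosphatases 2C, and so free the SnRK2 kinases that activate ABF transcription factors. DREB and CBF factors act on many of the same target genes, which encode dehydrins and other hydrophilic protective proteins named COR, LTI, RD, ERD and KIN. Jasmonate is made from plastid lipids after wounding. Its conjugate with isoleucine triggers the destruction of JAZ repressors, and both the synthesis enzymes and the JAZ genes are among its own targets.

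The deposited tables held unique molecular identifiers (UMIs, 1 per captured transcript) for each gene and cell barcode. A barcode was kept if it held 2000 UMIs or more with no more than 10% of them on mitochondrial and plastid genes, and only genes that reached 100 UMIs in one of the libraries were measured. This left 6360 barcodes for WER, 6830 for SCR, 7552 for CORTEX and 3516 for PET111, of 41823 in all. Their summed depth was 201564457, 151062589, 298058639 and 151951899 UMIs, and pairs of libraries shared between 5 and 16 kept barcode sequences. Levels are CPM, a gene's UMIs scaled to the same total in each library, and bracketed ranges after them are exact Poisson 95% intervals, which cover counting error only. The gap is the ratio between the nearest libraries of the sides, that is the lower value of the higher side over the higher value of the lower side, with any library under 3 UMIs set at 3. The reporter rows were as follows. GFP was at 44.0 CPM in WER, 9.50 in CORTEX and 3.35 in SCR with 0 UMIs in PET111, and YFP was at 25.1 CPM in PET111 with 0 UMIs in the other libraries. The WER gene (AT5G14750) was at 149.5 CPM in the WER library and between 30.9 and 46.5 CPM in the other 3. The other promoter genes were not highest in their own lines. SCR was at 4.18 CPM in the SCR library and 3.13 in WER against 7.39 in CORTEX and 9.60 in PET111. AT1G09750 was at 8.16 CPM in CORTEX, 8.73 in PET111, 8.29 in SCR and 4.30 in WER.

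WER and SCR were higher for 5876 genes (30.2% of those measured) and CORTEX and PET111 for 6450 (33.1%), while the sides overlapped for 7136 (36.7%). With DESeq2's size factors the counts were 6213 and 6123, and without the PET111 library 8178 and 7748, so which side had more genes depends on the scaling and on 1 library. Most gaps were small, with a median of 0.36 on the log2 scale over the 12326 genes. A gap of at least 2-fold was reached by 1661 genes with WER and SCR higher (8.53%) and 889 with CORTEX and PET111 higher (4.57%), together 13.1%. Gaps of at least 8-fold were far more one-sided, with 423 genes (2.17%) against 33 (0.17%). The 1661 genes took 12.8% of all UMIs in WER and 17.1% in SCR, but 2.87% in CORTEX and 2.83% in PET111. The 889 genes took 3.69% and 3.22% of UMIs in CORTEX and PET111 and 0.856% and 0.863% in WER and SCR. With only barcodes under 10000 UMIs the 2-fold counts were 776 and 834, and with equal weight given to each cell class they were 1244 and 1276, so the excess on the WER and SCR side at 2-fold rests on which barcodes are summed. Without the WER library both 2-fold counts were larger, at 2404 with SCR higher and 1455 with CORTEX and PET111 higher.

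**Figure D1:**
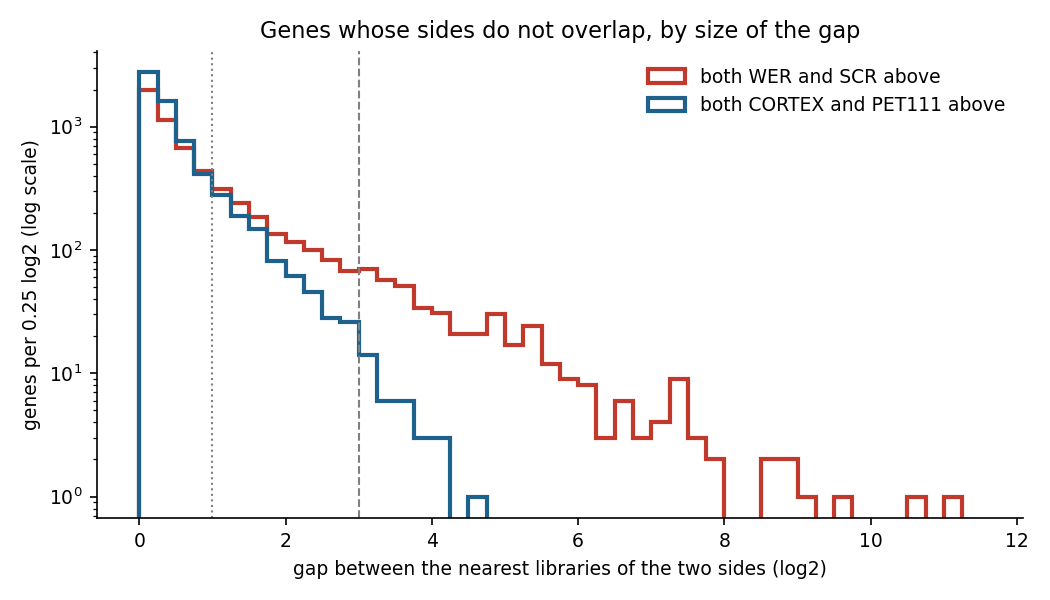
Number of genes (log scale) in each step of 0.25 on the log2 scale of the gap, for genes with both WER and SCR above (red) and with both CORTEX and PET111 above (blue); the dotted line marks a 2-fold gap and the dashed line an 8-fold gap. Blue lies above red at the smallest gaps and below it past the 2-fold line, and red runs on to 11.11 while blue ends at 4.69.

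At the edges of these rules the values were close. AT1G19380 was just inside the 2-fold rule at 42.1 CPM in WER and 36.6 in SCR against 13.3 in CORTEX and 18.3 in PET111. ETC1 was just outside it at 2.12 and 3.05 CPM against 1.06 and 0.770. On the other side AT5G55780 was just inside, at 2.24 and 1.84 CPM in CORTEX and PET111 against 0.918 and 0.609 in WER and SCR, and AT1G67520 just outside, at 0.416 and 0.612 against 0.208 and 0.106. SAE2 was the gene nearest to overlap on the WER and SCR side, at 17.1 CPM in both WER and PET111.

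Within a side the libraries also differed. WER and SCR were at least 2-fold apart for 759 of the 19462 genes (3.90%), and CORTEX and PET111 for 910 (4.68%). Of the 1661 genes at least 2-fold higher in WER and SCR, 1339 (80.6%) were higher in SCR than in WER, against 54.8% of all genes measured, with a median of 0.43 on the log2 scale. Of the same 1661 genes, 871 (52.4%) were higher in PET111 than in CORTEX, against 59.4% of all genes.

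The gene with the greatest gap was LTI78 (RD29A), a long used marker of cold and desiccation. It was at 44.5 CPM [43.6 to 45.4] in WER and 110.2 [109 to 112] in SCR, from 8965 and 16645 UMIs, and at 0.0201 [0.00739 to 0.0438] in CORTEX and 0.0197 [0.00407 to 0.0577] in PET111, from 6 and 3 UMIs. The nearest libraries were 2209-fold apart. SK11, one of the SKP1-like proteins that link F-box proteins to cullin in ubiquitin ligases, followed with 178 CPM in WER and 223 in SCR against 0.104 in CORTEX and 0.0526 in PET111. Both genes were close to undetected in CORTEX and PET111, and neither overlapped.

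The other genes among the 12 greatest gaps on this side had gaps of 204-fold to 814-fold. AT4G33930, annotated as a cupredoxin family protein, was at 104 CPM in WER and 109 in SCR against 0.127 in CORTEX and 0.0658 in PET111. ERF53, an AP2/ERF factor, was at 38.9 and 40.9 CPM in WER and SCR and at 0.0369 and 0.0658 in CORTEX and PET111. GOLS2, a galactinol synthase that begins the synthesis of raffinose sugars, was at 31.7 and 34.2 CPM in WER and SCR against 0.0403 and 0.0658. In each of these 3 genes WER and SCR were close to each other, and CORTEX and PET111 held 38 UMIs or fewer. The rest were AT2G47950, MYB108, the cold-regulated protein AT3G03341, the auxin-conjugating enzyme gene GH3.3, RAS1 (a gene named for its response to abscisic acid and salt), the RNA-binding family gene AT1G72800 and the ATPase family gene AT3G28600. RAS1, at 208 CPM in WER and 180.0 in SCR, had 241 UMIs in CORTEX and 89 in PET111, the most of the 12 in those libraries.

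On the other side the greatest gap was 25.9-fold. AT1G08670, an ENTH/VHS family protein, was at 34.6 CPM [33.9 to 35.3] in CORTEX and 30.0 [29.1 to 30.9] in PET111, and at 1.03 [0.892 to 1.18] in WER and 1.16 [0.993 to 1.34] in SCR. AT1G28815, an uncharacterized protein, was at 82.5 and 69.9 CPM in CORTEX and PET111 and at 4.02 and 4.87 in WER and SCR. GH9B6, a glycosyl hydrolase of a family that includes cellulases, was at 3.47 and 3.95 CPM in CORTEX and PET111 and at 0.203 and 0.192 in WER and SCR. These genes were lower in WER and SCR but still counted there, with 207, 811 and 41 UMIs in WER. The other genes of the 12 were AT2G36560, DMP7, GLIP7 (a GDSL lipase), AT5G42235, MIF3 (a mini zinc finger protein), AT1G49010, AT4G23390 and 2 genes annotated as non-coding RNA, AT4G05790 and AT5G10278, with gaps of 3.58 to 4.12 on the log2 scale.

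**Figure D2:**
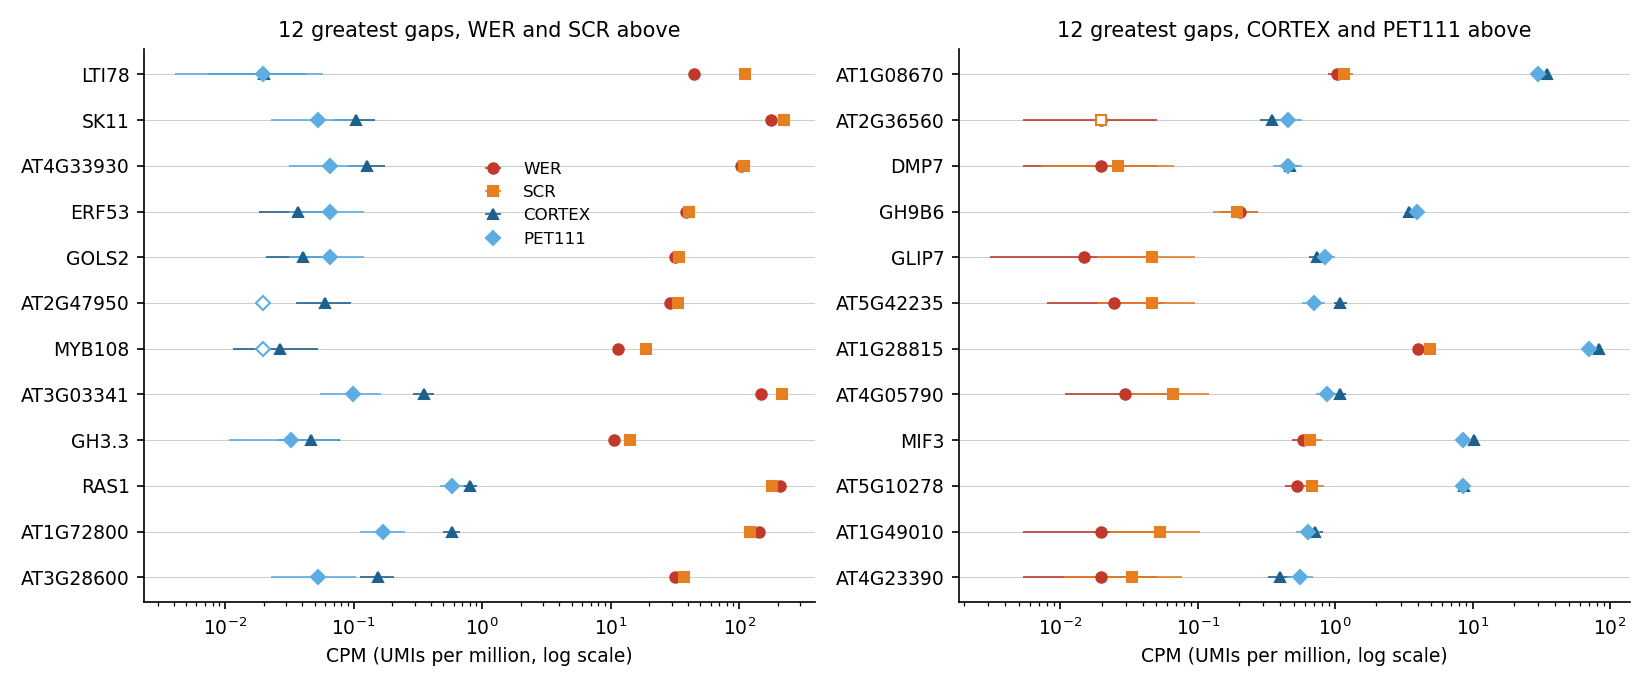
Level in CPM (log axis) of the 12 genes with the greatest gap in each direction, 1 row a gene, with WER as circles, SCR as squares, CORTEX as triangles and PET111 as diamonds; horizontal bars are exact Poisson 95% intervals and open symbols are libraries under 3 UMIs drawn at the level of 3 UMIs. In the left panel all WER and SCR symbols stand above 10 CPM and all CORTEX and PET111 symbols below 1 CPM; in the right panel the sides are nearer, at most 25.9-fold apart.

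The 24 genes of greatest gap were then followed in cell classes. Clusters of each library were named from marker genes, and 7 named classes had at least 63 barcodes in every library. Between 50.8% and 73.1% of kept barcodes stayed unnamed. Each library was clustered alone, so a class may not hold the same cells in each library. LTI78 was higher in both WER and SCR in each of the 7 classes, with gaps of 2.90 to 8.15 on the log2 scale, and in the endodermis-like class, where its level was highest, held only 12.1% of its UMIs in WER and 8.95% in SCR. SK11 was likewise higher in all 7 classes, with its highest levels in the phloem-like class, at 1028 CPM in WER and 825 in SCR against 0 UMIs in CORTEX and 1 UMI in PET111. Of the 12 genes, 9 had this order in all 7 classes, and MYB108, GH3.3 and AT3G28600 in 6, 4 and 1, with no class in the opposite order.

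On the CORTEX and PET111 side AT1G08670 had 98.1% of its UMIs in CORTEX and 98.6% in PET111 in the endodermis-like class, where it was at 808 and 661 CPM against 16.3 in WER and 54.7 in SCR. AT2G36560, DMP7, GLIP7 and AT1G28815 had between 95.6% and 100% of their CORTEX UMIs in the same class. GH9B6 had 89.9% of its UMIs in CORTEX and 93.7% in PET111 in the root cap-like class, at 65.8 and 96.0 CPM there against 2.87 in WER and 0.874 in SCR. AT4G05790 and AT1G49010 also had most of their UMIs in the root cap-like class. Others were spread more widely. MIF3 had 52.0% of its CORTEX UMIs and 55.4% of its PET111 UMIs in the endodermis-like class, AT4G23390 25.4% and 37.6% in the non-hair cell-like class, and AT5G42235 4.31% and 0.943% in the endodermis-like class, its highest by level. AT1G28815 kept the order of the sides in 6 of 7 classes, MIF3 and AT5G10278 in 3, AT5G42235 in 0 and the other 8 in 1 each. The endodermis-like class made up 5.74% of kept barcodes in WER, 2.68% in SCR, 4.90% in CORTEX and 7.88% in PET111, and the root cap-like class 5.61%, 7.63%, 17.1% and 16.8%. The endodermis-like class was 1 cluster in SCR, with CASP1 and CASP2 among its leading genes, and 2 clusters in each other library. In SCR 2 unnamed clusters of 175 and 255 barcodes, and in CORTEX 1 of 308, shared leading genes such as AT1G05260 or AT2G48130 with the second endodermis-like clusters of the other libraries. The root cap-like class differed in make-up too. Unnamed clusters of 104 barcodes in WER and 309 in SCR shared the leading genes AT4G34970 and AT2G04025 with root cap-like clusters of CORTEX and PET111. The 10 root cap markers summed to 215 CPM in WER and 235 in SCR against 174 in CORTEX and 153 in PET111. The shares and levels of both classes therefore do not cover the same cells in each library. In sums over a whole library, fewer cells of a type and less RNA per cell cannot be told apart.

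Marker genes of some cell types also stood apart, and their counts are to be read against 30.2% of all genes being higher in WER and SCR and 33.1% in CORTEX and PET111. Of 8 endodermis markers measured, 7 were higher in CORTEX and PET111, among them CASP1 to CASP5, the membrane proteins of the Casparian strip, and the 10 markers summed to 2383 and 2085 CPM there against 675 in WER and 1010 in SCR. GPAT5 was at 0 in CORTEX. The 3 cortex markers were higher in CORTEX and PET111 (57.9 and 60.8 CPM in sum, against 17.3 and 27.8), and 6 of 8 phloem markers were higher in WER and SCR (29.7 and 40.9 CPM in sum, against 11.5 and 8.07). SUC2, the sucrose loader of companion cells, was at 14.2 and 20.3 CPM in WER and SCR and 1.56 and 0.750 in CORTEX and PET111. Dividing-cell markers summed to 131 CPM in WER, 88.0 in SCR, 129.9 in CORTEX and 162 in PET111. Most of these overlapped, with 0 of 11 higher in WER and SCR and 2 in CORTEX and PET111. The part of these class differences in the gene values above and below was not tested.

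Of 23 cold and dehydration genes measured, 21 were higher in both WER and SCR (30.2% of all genes were), 0 in CORTEX and PET111, and 19 reached 2-fold, with a median difference of 4.27 on the log2 scale between the sides' means against -0.05 over all genes measured. Among them are dehydrins, hydrophilic proteins that protect membranes and proteins during drying. LTI30 was at 1136 CPM in WER and 2249 in SCR against 22.1 in CORTEX and 27.4 in PET111, a gap of 41.4-fold. ERD10 was at 1174 and 2100.1 CPM against 51.4 and 35.9, and ERD14 at 2907 and 4202 CPM against 495 and 299. RAB18 was at 33.2 and 55.9 CPM against 0.614 and 0.763. In all 4 dehydrins SCR was higher than WER, and the gap ranged from 5.88-fold for ERD14 to 43.5-fold for RAB18. COR47, also a dehydrin, had a gap of 6.44-fold.

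Other effector genes covered a wider range. KIN1 had a gap of 181-fold and its neighbour and near copy KIN2 one of 14.3-fold, and reads of the pair may be split between them. LEA14 had a gap of 13.3-fold and COR413-PM1 one of 2.36-fold. RD29B had 234 UMIs in WER, 269 in SCR, 1 in CORTEX and 0 in PET111, and RD20, a caleosin, had 115 and 193 UMIs in WER and SCR and 0 in both others, at least 28.9-fold higher with the floor of 3 UMIs per library. COR15A, a chloroplast protein that stabilizes membranes in the cold, had 0 UMIs in CORTEX and PET111 but was low in WER as well, at 0.0645 CPM, and at 1.24 CPM in SCR. COR314-TM2 and COR414-TM1 did not separate the sides, COR314-TM2 at 31.8 to 39.7 CPM and COR414-TM1 at 5.14 to 6.60.

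The regulators of these genes were higher too. DREB2A, a factor of drought and heat, was at 508 CPM in WER and 614 in SCR against 37.6 and 29.3 in CORTEX and PET111. The cold factor genes CBF1, CBF2 and CBF3 had gaps of 12.8-fold, 6.56-fold and 8.92-fold, though these 3 near copies may share reads. RD26, a NAC factor, was at 61.5 and 106 CPM against 4.40 and 3.82. NCED3, the rate-limiting enzyme of abscisic acid synthesis, and P5CS1, which makes proline, had small gaps of 1.88-fold and 1.86-fold.

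**Figure D3:**
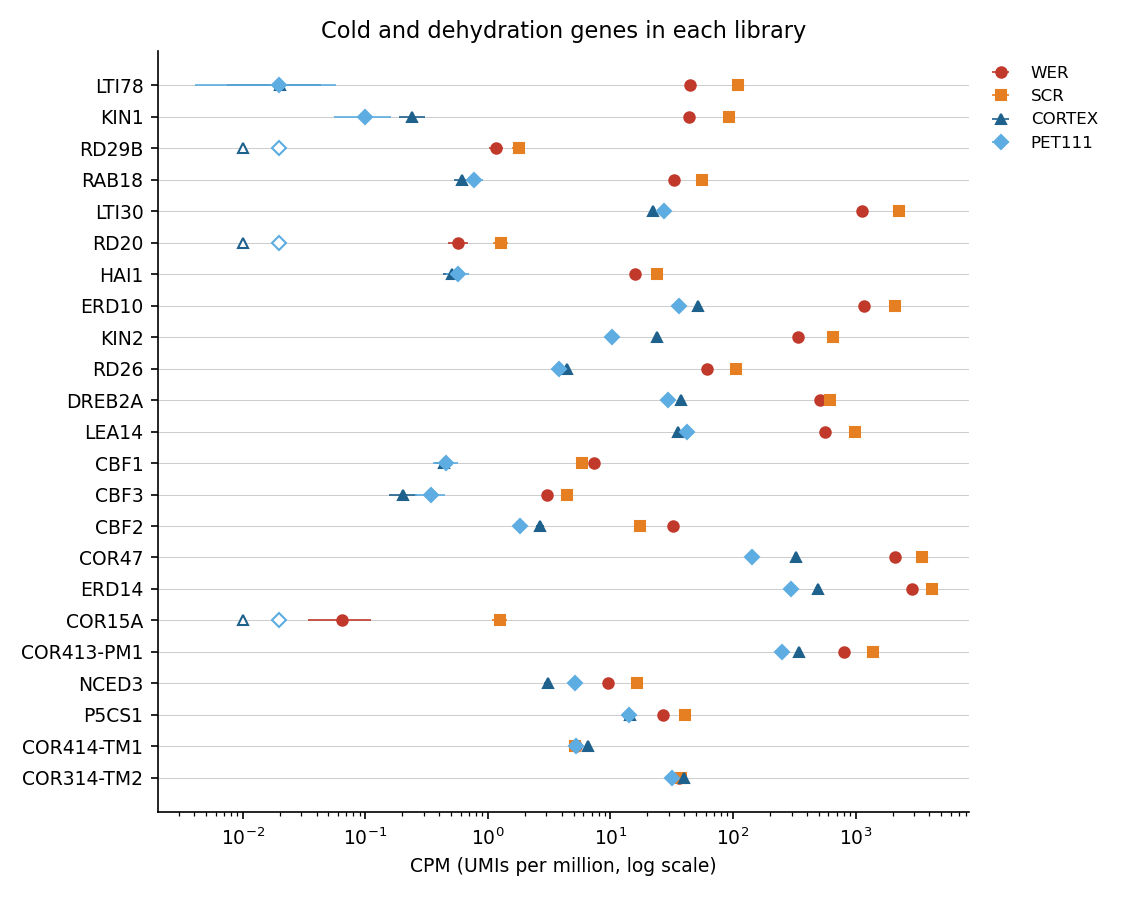
Level in CPM (log axis) of the 23 cold and dehydration genes measured, ordered by gap, with symbols and intervals as for the genes of greatest gap. WER and SCR lie to the right of CORTEX and PET111 in 21 rows, and only COR414-TM1 and COR314-TM2 overlap.

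The difference in the summed cold and dehydration list ran through most barcodes. Abundant genes weigh most in this sum, and in WER ERD14, COR47 and ERD10 held 2907, 2081 and 1174 of its 9836 CPM. The genes of this list took a median of 0.765% of a barcode's UMIs in WER and 1.21% in SCR, against 0.124% in CORTEX and 0.0848% in PET111. The lower quartile in WER, 0.416%, lay above the upper quartile in CORTEX, 0.257%, and in PET111, 0.171%. The upper tails reached into the other side, since the highest 5% of CORTEX barcodes exceeded 0.891%. When every kept barcode was thinned to 2000 UMIs, LTI78 was detected in 8.41% and 18.0% of barcodes of WER and SCR and in 0 of 7552 and 0 of 3516 in CORTEX and PET111, which at that thinned depth allows shares of barcodes with a UMI of up to 0.0397% and 0.0853%. At full depth, where more barcodes reach 1 UMI, the LTI78 shares were 25.9%, 43.7%, 0.0794% and 0.0853% in WER, SCR, CORTEX and PET111.

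**Figure D4:**
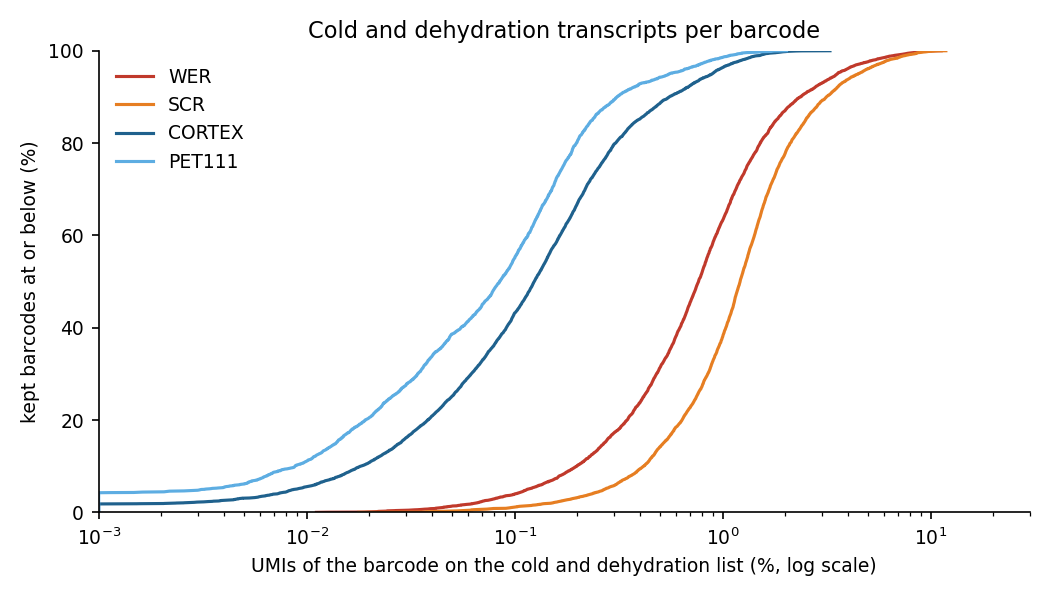
Cumulative share of kept barcodes (percent) against the percent of a barcode's UMIs that fall on the cold and dehydration list (log axis; values under 0.001 are drawn at the left edge), 1 line a library. The WER and SCR lines cross 50% at 0.765 and 1.21, and the CORTEX and PET111 lines at 0.124 and 0.0848.

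Summed over the list, the cold and dehydration genes were higher in both WER and SCR in each of the 7 classes. In the endodermis-like class the sum was 18897 CPM in WER and 48910 in SCR against 2163 in CORTEX and 2324 in PET111. In the dividing class, where it was lowest, it was 1188 and 2966 CPM against 275 and 93.0. In the phloem-like class CORTEX and PET111 were at their highest, 7707 and 6812 CPM, and WER and SCR were at 27980 and 26850. As above, a class may not hold the same cells in each library.

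**Figure D5:**
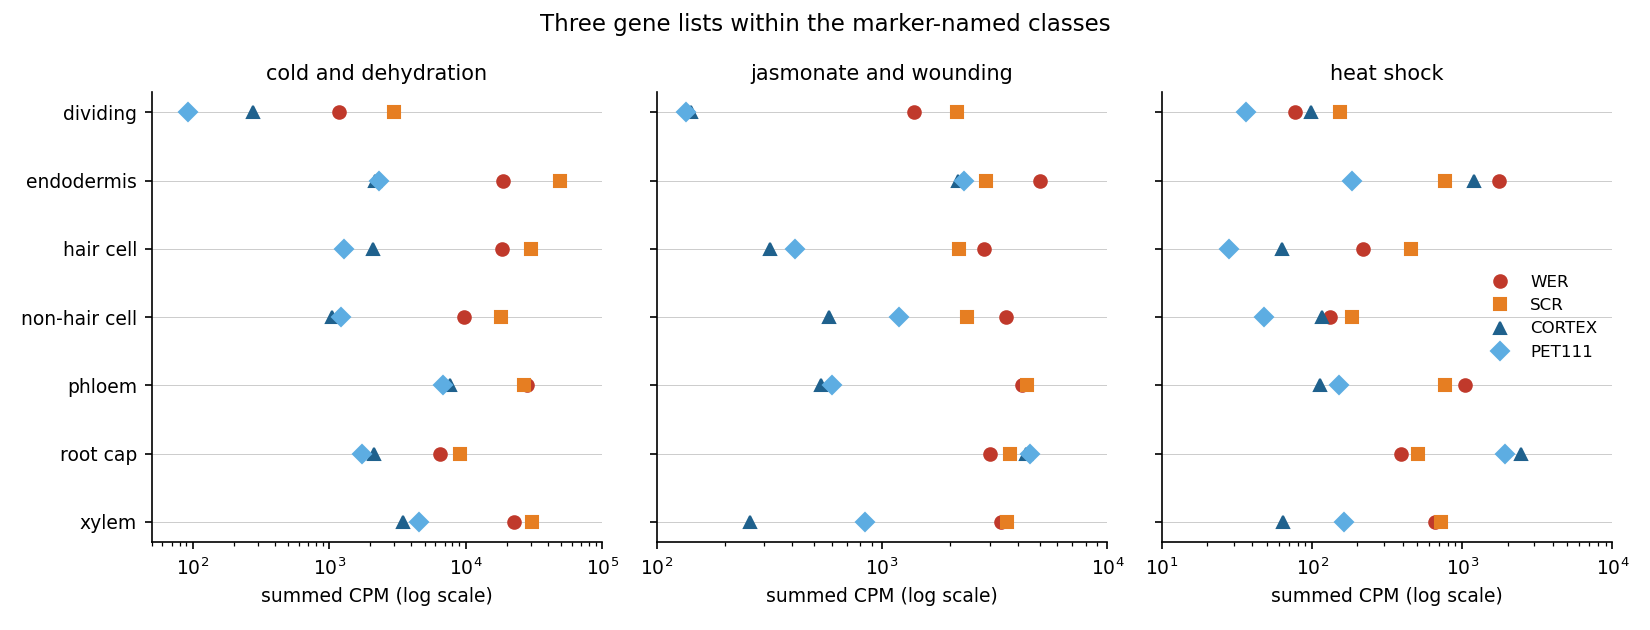
Summed CPM (log axes, a different range in each panel) of the cold and dehydration, jasmonate and wounding, and heat shock lists within 7 marker-named classes, with 1 symbol a library. WER and SCR stand to the right in all 7 classes for the first list, in 6 for jasmonate and wounding and in 4 for heat shock, and in the root cap-like class the order is opposite for the latter 2 lists. The root cap-like class does not cover the same cells in each library.

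Genes of the abscisic acid pathway were listed after the values were seen, and their steps differed in direction. Among 25 measured, 20 were higher in WER and SCR and 4 in CORTEX and PET111, with 9 and 2 past 2-fold. Of all genes 30.2% and 33.1% were in these orders, with 8.53% and 4.57% past 2-fold. The 6 phosphatase genes listed, whose products restrain the pathway, were higher in WER and SCR. HAI1 was at 16.0 CPM in WER and 23.9 in SCR against 0.510 and 0.566 in CORTEX and PET111, ABI1 had a gap of 8.16-fold, and PP2CA, HAB1 and ABI2 had gaps of 4.97-fold, 3.27-fold and 2.09-fold. Of the receptors, PYR1, PYL4 and PYL6 were lower in WER and SCR, PYL6 by 2.17-fold, while PYL5, PYL8 and PYL9 were higher, PYL9 by 2.44-fold. The kinase genes SNRK2.3 and OST1 had gaps of 1.37 and 0.85 on the log2 scale, and the factors ABF1, ABF2, ABF3 and ABF4 gaps of 0.13, 0.17, 0.61 and 0.55. CYP707A1, which breaks abscisic acid down, was at 82.3 and 170.1 CPM in WER and SCR against 19.0 and 25.5.

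Of 14 genes of the jasmonate and wounding list, 11 were higher in WER and SCR and 1, WRKY53, in CORTEX and PET111, against 30.2% and 33.1% of all genes. The repressor genes JAZ7, JAZ8 and JAZ10 led the list. JAZ7 was at 70.9 CPM in WER and 90.2 in SCR against 3.26 in CORTEX and 7.38 in PET111, and JAZ10 at 156 and 176 CPM against 19.8 and 19.2. A second list of synthesis and turnover genes, drawn up after the values were seen, had 19 of 20 members higher in WER and SCR and 16 past 2-fold. Among the synthesis enzymes, AOS had a gap of 4.16-fold, LOX3 6.63-fold and OPR3 3.32-fold, while AOC4 was lower in WER and SCR by 1.11-fold. CYP94B3, which oxidizes the isoleucine conjugate, was at 90.6 and 173 CPM in WER and SCR against 1.01 and 0.638 in CORTEX and PET111, and AT2G38240, a gene of the same list without a symbol in the annotation, at 169.6 and 280.5 CPM against 1.05 and 0.823. Both had their sides 89.7-fold or more apart. In the root cap-like class the summed jasmonate and wounding list was in the opposite order, at 3019 CPM in WER and 3685 in SCR against 4339 in CORTEX and 4537 in PET111. That class does not cover the same cells in each library, so whether the order turns in like root cap cells was not tested.

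Transcription factors of group X of the ERF family, many of them induced by wounding, were also listed afterwards. Of 7 measured, 6 were higher in WER and SCR by at least 2-fold, against 8.53% of all genes, and AT2G33710 overlapped. ABR1 was at 132 CPM in WER and 226 in SCR against 0.520 in CORTEX and 0.816 in PET111, and had this order in all 7 classes. After thinning to 2000 UMIs it was detected in 24.6% of barcodes in WER, 33.3% in SCR, 0.159% in CORTEX and 0.284% in PET111, and before thinning in 55.0%, 66.1%, 1.32% and 2.25%. RRTF1 had a gap of 14.5-fold and RAP2.6 one of 8.28-fold. ERF115, a factor of stem cell division and regeneration, had 426 and 399 UMIs in WER and SCR, 1 in CORTEX and 2 in PET111. By annotation words, 47 of 70 NAC genes and 48 of 75 AP2/ERF genes were higher in WER and SCR, against 10 and 11 higher in CORTEX and PET111. Of all genes 30.2% and 33.1% were higher on these sides. With only barcodes under 10000 UMIs the NAC counts were 27 and 25.

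Of the raffinose pathway genes, also listed after the values were seen, 5 of 6 were higher in WER and SCR, against 30.2% of all genes. GOLS4 had 194 UMIs in WER, 155 in SCR, 5 in CORTEX and 1 in PET111. GOLS3, the cold-induced member, went the other way, at 0.193 CPM in WER and 0.252 in SCR against 1.09 in CORTEX and 0.790 in PET111. The raffinose synthase gene RS5 had a gap of 3.37-fold with WER and SCR higher.

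Within the SKP1-like family, 7 of 9 measured genes were higher in WER and SCR, against 30.2% of all genes, and 1, AT5G42190, was slightly lower. SKP1, the main family member, differed little, at 1056 CPM in WER and 1299 in SCR against 846 in CORTEX and 713 in PET111. SK12 is a close copy of SK11 and was at 4.05 and 3.83 CPM in WER and SCR against 0.0403 and 0.0263, so reads of SK11 counted for it cannot be told apart from its own. SK5 had a gap of 6.72-fold and SK4 one of 3.21-fold, SK20 and SK21 of 1.65-fold and 1.71-fold, and SK18 overlapped.

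Lists of other stresses were mixed. Their counts stand beside 30.2% of all genes higher in WER and SCR and 33.1% in CORTEX and PET111. With all kept barcodes, those of the salicylic acid and camalexin lists were not far from these shares. Of 18 heat shock genes, 8 were higher in WER and SCR and 10 overlapped, but CORTEX and PET111 were the higher side for 10 against 2 with only barcodes under 10000 UMIs, 8 against 1 with thinning and 9 against 8 without PET111. Among the 8 higher in WER and SCR with all kept barcodes, the HSP17.6II, HSFA2 and HSP90.1 genes had gaps under 2-fold. AT1G53540 and GOLS1 reached 2.43-fold and 4.39-fold. The summed heat shock list was in the opposite order in the root cap-like class, at 389 and 508 CPM in WER and SCR against 2446 and 1912 in CORTEX and PET111. That class does not cover the same cells in each library. Among 16 salicylic acid and pipecolate genes, 4 were higher in WER and SCR and 5 in CORTEX and PET111, with 2 and 13 among barcodes under 10000 UMIs, 3 and 11 with thinning and 6 and 5 without SCR. WRKY46 was at 175 and 114 CPM in WER and SCR against 12.9 and 18.7, while PBS3, which conjugates isochorismate in salicylic acid synthesis, was at 5.56 and 2.39 against 9.26 and 13.4. Of 17 genes of camalexin and indole glucosinolates, 4 were higher on each side, with 2 and 11 among barcodes under 10000 UMIs, 3 and 8 with thinning and 12 and 4 without PET111. GGP1 had a gap of 4.25-fold and PAD3, the last enzyme of camalexin synthesis, one of 2.27-fold.

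Of 9 flavonoid genes measured, 7 were higher in CORTEX and PET111 and 1 in WER and SCR, with 2 and 2 among barcodes under 10000 UMIs. Over all genes and kept barcodes the shares were 33.1% and 30.2%, and under 10000 UMIs the counts were 4236 and 3937 of 12850 genes. FLS1, the flavonol synthase, was at 80.3 CPM in CORTEX and 41.3 in PET111 against 14.6 in WER and 10.4 in SCR. TT4, chalcone synthase and the entry enzyme, was at 331 and 145 CPM against 90.9 and 70.2. MYB12, which activates flavonol genes in roots, was at 38.3 and 49.7 CPM in WER and SCR against 16.2 and 14.8. Thalianol and marneral genes, enzymes of root triterpene clusters, had 6 of 10 members higher in CORTEX and PET111, with gaps up to 2.33-fold for AT5G47980, and PEN1 was higher in WER and SCR by 0.59 on the log2 scale, an order that reversed with equal class weights.

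Nutrient lists held genes of both directions, at shares that in part lay near the 30.2% and 33.1% of all genes. Of 20 iron genes, 11 were higher in CORTEX and PET111 and 5 in WER and SCR. Those higher in CORTEX and PET111 included the iron deficiency factors BHLH38, BHLH39 and BHLH101, with BHLH101 at 3.00 and 5.94 CPM against 0.700 in WER and 0.953 in SCR, and FRO3, an iron reductase. FER1, a ferritin that stores iron and is made when iron is plentiful, was the other way, at 33.2 and 41.8 CPM in WER and SCR against 14.0 and 10.6. AT1G47400 and its near copy AT1G47395 had gaps of 4.06-fold and 2.64-fold with CORTEX and PET111 higher. Of 14 phosphate genes, 7 were higher in WER and SCR and 4 in CORTEX and PET111, but 5 and 6 in barcodes outside the filter. PAP17, an acid phosphatase, and RNS1, a ribonuclease, were 11.3-fold and 10.0-fold higher in WER and SCR, and PHT1;4, a transporter, 2.25-fold lower. Among 16 nitrate and ammonium genes 6 were higher in WER and SCR and 7 in CORTEX and PET111, turned to 8 and 7 without WER and 5 and 3 outside the filter. NIA1 and NRT1.8 were 3.94-fold and 3.38-fold higher in WER and SCR and LBD39 2.87-fold lower.

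Clock genes gave 7 of 16 higher in WER and SCR and 3 in CORTEX and PET111, turned to 5 and 6 with only barcodes under 10000 UMIs. Over all genes and kept barcodes the shares were 30.2% and 33.1%, and under 10000 UMIs the counts were 3937 and 4236 of 12850 genes. BOA, PRR5 and CCA1 had gaps of 2.54-fold, 2.40-fold and 2.35-fold, and LHY, the morning partner of CCA1, was lower in WER and SCR, at 0.972 and 1.16 CPM against 1.48 and 1.41. Nuclear photosynthesis genes were low throughout, with 5 of 10 higher in CORTEX and PET111 and LHCB3 at 2.21 and 1.47 CPM against 0.481 and 0.344. Of 6 measured genes known to vary between natural accessions, 4 were higher in CORTEX and PET111. RPP8, a disease resistance gene, was at 0.577 and 0.632 CPM there and at 0.238 and 0.0794 in WER and SCR. FLC, the flowering repressor, overlapped between 0.852 and 3.00 CPM.

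Protein families were counted by annotation words, beside 30.2% and 33.1% of all genes higher in WER and SCR and in CORTEX and PET111. Under 10000 UMIs these were 3937 and 4236 of 12850 genes, and outside the filter 4107 and 3254 of 11080. Of 361 ribosomal protein genes, 248 were higher in CORTEX and PET111 and 14 in WER and SCR, of which 2 and 1 reached 2-fold, and with only barcodes under 10000 UMIs the order was turned, at 25 and 43. Of 136 genes annotated as disease resistance proteins, 86 were higher in CORTEX and PET111 and 14 in WER and SCR, with 82 and 14 among barcodes under 10000 UMIs. Of 65 late embryogenesis abundant and dehydrin genes, 34 were higher in WER and SCR, 18 of them by at least 8-fold, and 16 in CORTEX and PET111. Of 49 glutathione S-transferase genes, which attach glutathione to toxic compounds, 18 were higher in WER and SCR and 14 in CORTEX and PET111, and of 128 cytochrome P450 genes 45 and 51 (42 and 41 outside the filter) and of 627 protein kinase genes 183 and 238, shares near those of all genes.

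In the order of genes along the chromosomes, 33 runs of at least 3 neighbouring measured genes were 2-fold or more higher in WER and SCR together, and 12 such runs were higher in CORTEX and PET111. The runs held 109 of the 1661 genes past 2-fold on the first side and 36 of the 889 on the other. These sides had 8.53% and 4.57% of all genes past 2-fold, and whether runs exceed what such shares give was not tested. The longest held 6 genes, among them the tau class glutathione S-transferases GSTU7, GSTU6, GSTU5, GSTU4 and GSTU3. AT2G29430, annotated as a coiled-coil protein, lay between GSTU7 and GSTU6. Within the run GSTU5 was at 601 CPM in WER and 808 in SCR against 13.7 in CORTEX and 10.1 in PET111. GSTU6 was at 1027 and 1258 against 77.8 and 43.3, and GSTU7 at 189 and 312 against 69.9 and 85.4. Gaps ranged from 2.21-fold for GSTU7 to 43.7-fold for GSTU5, and related copies may share reads. Among the runs of 4, one joined EDF3, MAP1B, AOC1 and AOC2, and another held AT1G10140, AT1G10150, PP2-A10 and NFXL1, a regulator of stress responses at 225 and 442 CPM against 18.6 and 28.4. One more held AT1G11175, SCAMP2, AT1G11185 and BFN1, a nuclease of cell death and senescence at 22.0 and 34.8 CPM against 2.08 and 2.11. Others of 4 genes were DAN1, WDL1, AT3G04640 and AT3G04650, and AT3G07340, AT3G07350, PUB9 and CHIP. The last 2 of the 7 runs of 4, tied in length and named in addition to the rule, were TPPG, AT4G22610, AT4G22620 and AT4G22640, with gaps up to 50.9-fold, and AT5G64230, MC3, AT5G64250 and EXL2, with gaps up to 45.1-fold. Where counting did not use strand, reads of overlapping neighbours cannot be told apart.

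Near absence was found on one side only. In 32 genes (0.164%) CORTEX and PET111 each had at most 3 UMIs while WER and SCR each had at least 30, and in 0 genes (0%) was it the reverse. The 3 with most UMIs were AT3G19920 with 452 UMIs in WER and 882 in SCR, ELI3-2, a cinnamyl alcohol dehydrogenase with 664 and 677, and AT4G34300 with 568 and 514. In CORTEX and PET111 AT3G19920 had 1 and 1 UMIs, ELI3-2 1 and 0, and AT4G34300 1 and 2. RD29B, RD20 and ERF115 were also among the 32. By annotation words the 32 included 3 RNA genes (9.38%, against 2.32% of genes measured), 2 NAC genes (6.25% against 0.360%), 2 late embryogenesis abundant or dehydrin genes (6.25% against 0.334%), 2 hypothetical or uncharacterized proteins (6.25%, where 1381 of the 19462 genes measured are such), 1 F-box protein (3.13% against 0.817%), 1 disease resistance-responsive protein (3.13% against 0.699%), and no ribosomal protein, defensin-like or transposable element gene. With genes of any count admitted, 80 genes were near absent in CORTEX and PET111 and 6 in WER and SCR, and without the CORTEX library 77 and 1.

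Within classes the order was kept to different degrees. In the hair cell-like class, 913 of the 1661 genes at least 2-fold higher in WER and SCR had 100 UMIs in a library of the class, and 878 of them (96.2%) kept the order, against 33.4% of all 9821 such genes of the class. In the dividing class 793 of 881 kept it against 37.1% of all genes there, and in the xylem-like class 654 of 721 against 21.4%. In the root cap-like class 640 of 882 kept it against 16.9%, and 119 were in the opposite order, in a class where 67.7% of all genes were higher in CORTEX and PET111 and 39.1% were so by 2-fold. That class was built from 2 clusters in WER and 2 in SCR but 6 in CORTEX and 5 in PET111. Of 213 hair cell-like barcodes in PET111, 136 came from a cluster led by AT1G27140 and AT4G22217. Clusters sharing these leading genes stayed unnamed in WER, CORTEX and SCR. Of 346 dividing-class barcodes in SCR, 278 came from a cluster with 0 dividing markers among its leading genes. Of 679 non-hair cell-like barcodes in CORTEX and 348 in PET111, 357 and 231 came from clusters led by AT1G65310. Clusters of 128 barcodes in WER and 127 in SCR led by the same gene stayed unnamed. No non-hair cell-like cluster had a marker of its class among its leading genes. Counts in these classes and in the endodermis-like class therefore do not compare the same cells in each library. Of the 889 genes at least 2-fold higher in CORTEX and PET111, 323 of 344 kept the order in the non-hair cell-like class against 27.2% of all genes there, 292 of 342 in the endodermis-like class against 20.6%, and 96 of 162 in the dividing class against 13.7%. These barcodes are among those that set the order of the whole libraries, so the counts describe where it was carried.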

How the data were processed

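The authors deposited raw counts of UMIs for each gene and barcode, 1 table per library, from root protoplasts of 4 lines, made with 10x Genomics 3′ chemistry per the labels' protocols. The submitters' processing notes name Cell Ranger 7.1.0 and Seurat; the genome build, annotation and cell filter are not given in the sources used here, so no coordinates or sequences are printed. Levels are CPM computed here from those deposited counts over kept barcodes. Genes needed 100 UMIs in a library. No gap was given where the higher side held a library at or under 3 UMIs. RefSeq (assembly TAIR10.1) gave symbols, products and gene order and matched 32548 of 32835 rows. Clusters were made separately in each library (scanpy 1.11.5, Leiden, resolution 1.0, 2000 variable genes, 30 components, 15 neighbours). A cluster was named where at least 3 class markers were 2-fold above the rest with a mean of at least 1.0 on the log2 scale, thresholds set after the clusters were seen. Doublets were not removed. The line pairing, members and gene lists were chosen with earlier results of these data known, and 4 lists after the values were seen. With 1 library per line no test was made. Named genes are the reporters and promoter genes, the 12 greatest gaps each way, the 3 greatest gaps of each of 18 lists, the members of the SKP1-like and cold lists and the 6 longest runs of neighbours; other genes were named after their values were seen. Alternatives changed the barcode and gene filters, thinning, scaling (TMM from edgeR 4.0.16, size factors from DESeq2 1.42.0), the pseudocount, class weights and the libraries. The gap calculation was tested on simulated data.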

Additional observations from a re-analysis of the deposited data

Results flagged for a closer look

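Barcodes outside the filter, those under 2000 UMIs or over the organelle limit, are left out of the levels above and enter only as an alternative. All 12 genes of greatest gap on the WER and SCR side stood apart in them as well. On the other side 8 of 12 did, while AT2G36560, DMP7, AT4G05790 and AT1G49010 had no gap, with 9 UMIs or fewer in every library. The gaps of GLIP7 and AT5G42235, 1.19-fold and 1.24-fold, were limited by the floor of 3 UMIs. GLIP7 had 0 UMIs in WER and SCR against 4 in CORTEX and 16 in PET111. AT5G42235 had 1 in WER and 2 in SCR against 9 and 6. The barcodes outside the filter held 7408802 UMIs in WER, 9890640 in SCR, 8302697 in CORTEX and 11968295 in PET111. LTI78 was at 62.0 CPM in WER and 174 in SCR among them, with 0 UMIs in CORTEX and PET111, which allows up to 0.361 and 0.251 CPM. SK11 was at 86.0 and 76.1 CPM in WER and SCR, with 0 UMIs in CORTEX and 1 in PET111. AT1G08670 was at 10.6 CPM in CORTEX and 26.5 in PET111, against 2.83 in WER and 1.62 in SCR. Of the 934 genes with a gap of at least 2-fold on the WER and SCR side and 100 UMIs outside the filter, 906 had the same order there and 4 the opposite, and of 358 genes of the other side 325 and 2. Of all 11080 genes with 100 UMIs there, WER and SCR were higher for 4107 and CORTEX and PET111 for 3254.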

How the results depend on the processing

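No paired analysis was possible because each line has 1 library. Under 17 alternatives the 2-fold count with WER and SCR higher (1661) was 776 with only barcodes under 10000 UMIs, 883 with each barcode thinned to 2000 UMIs, 2492 with genes of at least 1 UMI and 901 with only barcodes outside the filter, an alternative chosen after seeing the data. The 2-fold count with CORTEX and PET111 higher (889) was 585 with thinning, 518 with genes of at least 1000 UMIs, 438 on the log2(CPM + 1) scale and 395 outside the filter. The count of genes higher in WER and SCR (5876) was 3659 with thinning and 3810 with equal weight to each cell class, where 8696 were higher in CORTEX and PET111 and WER and SCR held 30.5% of the order against 47.7%. The count higher in CORTEX and PET111 (6450) was 4236 under 10000 UMIs and 3254 outside the filter. Genes near absent in CORTEX and PET111 (32) were 20 with thinning, 80 with genes of at least 1 UMI, 0 with at least 1000 UMIs and 19 outside the filter, and genes near absent in WER and SCR (0) were 6 with genes of at least 1 UMI and 10 with equal class weights. Fewer genes pass the 100 UMI filter with thinning (12374) and under 10000 UMIs (12850); otherwise the cause was not tested. Leaving out 1 library at a time gave 1730 to 2404 and 1129 to 1455 genes past 2-fold, 6979 to 8178 and 7748 to 9002 in order, and 26 to 77 and 0 to 6 near absent. TMM and size factors moved no count by 1.5 times. Over 155 named genes and 17 alternatives, 860 of 2635 gaps moved by more than their counting error and 3 reversed. The gap reversed for HSFA7A under 10000 UMIs (-0.67 on the log2 scale) and for PEN1 with equal class weights (-0.21) and outside the filter (-0.22). A gene at 0 may be present below 0.0101 to 0.0199 CPM, the level of 3 UMIs.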
